A study of Mus musculus with 2 samples.

Results

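Cells carrying *Tfap2b* together with *Onecut* or *Lhx1* transcripts, and at most 1 *Ptf1a* transcript, made up 102 of the 4444 retained GFP- cells. They were 2.30% of the cells retained in the GFP- library (exact 95% interval 1.88 to 2.78). Each was chosen by its raw UMIs (unique molecular identifiers, 1 for each captured transcript). At least 1 UMI of *Tfap2b*, at most 1 of *Ptf1a*, and at least 2 over *Onecut1*, *Onecut2* and *Lhx1* together were required. These cells are called *Tfap2b*/*Onecut* cells here. Retinas came from embryos of 2 litters at E14.5, heterozygous for the bacterial artificial chromosome transgene Tg(Lhx4::EGFP)KN199Gsat/Mmucd, in which EGFP follows *Lhx4* regulatory sequence and labels early cones. They were pooled, dissociated and sorted into a GFP+ and a GFP- gate, and each gate was sequenced as a single 10x Genomics 3′ library of poly(A) RNA. The GFP- library held 4445 cells with 46778924 UMIs (median 9936 per cell), and the GFP+ library 3728 cells with 16010591 UMIs (median 3906.5). All cells of both gates carried the transgene and none was treated. With 1 library per gate and pooled embryos there was no biological replicate and no test, so levels are summed UMIs as counts per 1000000 (CPM) and all intervals cover counting error only.

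Horizontal cells are inhibitory interneurons of the outer retina that contact photoreceptor terminals. They arise early from progenitors that pass through *Foxn4* and *Ptf1a* expression, a route they share with amacrine cells. Onecut factors act early in their specification, *Prox1* and the AP-2 factors *Tfap2a* and *Tfap2b* act in the postmitotic precursor, and the LIM factor *Lhx1* marks the horizontal branch and is needed for the cells to reach their layer.

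*Tfap2b*, the AP-2 factor of the rule, was counted at 1 UMI in the lowest cell, 6 UMIs in the median cell and 25 UMIs in the highest. Of the 102 cells, 23 had a single *Tfap2b* UMI, 5 had 2 and 74 had 3 or more. *Onecut2*, a cut-homeodomain factor, ranged from 0 to 20 UMIs per cell with a median of 6, and 100 of the 102 cells had it. *Onecut1* was found in 54 cells and reached 4 UMIs. *Lhx1* was found in 28 cells at 1 to 5 UMIs. The rule therefore took in most cells through *Onecut2*. As a description of the selection, *Tfap2b* stood at 843 CPM in the chosen cells and 38.7 CPM in the other 4342 cells, *Onecut2* at 811 and 101 CPM, and *Lhx1* at 67.7 and 1.26 CPM. *Ptf1a*, capped at 1 UMI, was at 0 in 60 cells and at 1 in 42.

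**Figure D1:**
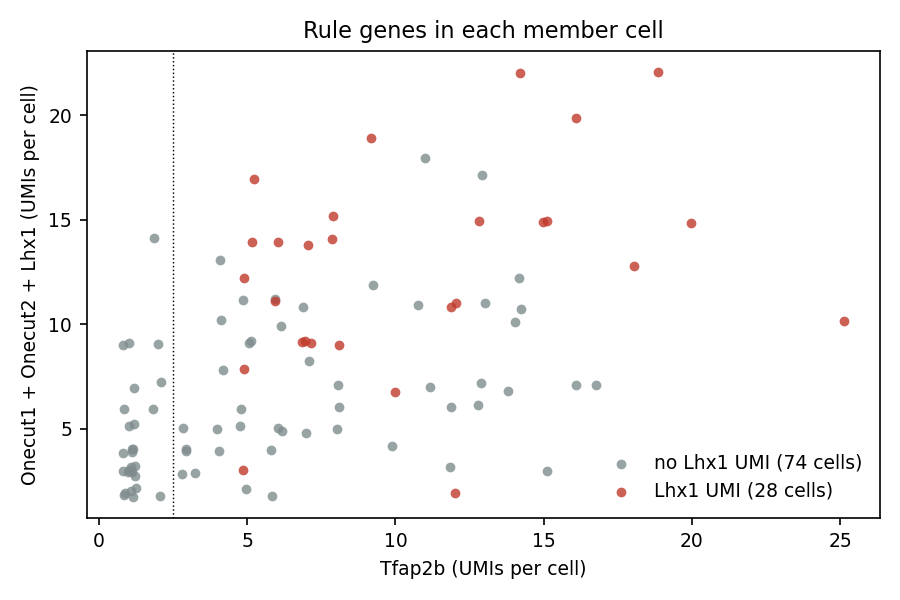
UMIs of *Tfap2b* (x axis) against the summed UMIs of *Onecut1*, *Onecut2* and *Lhx1* (y axis) in each of the 102 cells, jittered so that equal counts do not overlap. The dotted line separates the 28 cells with 1 or 2 *Tfap2b* UMIs from the 74 with 3 or more, and all 28 cells with an *Lhx1* UMI (red) lie to its right.

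Cells at the border of the rule differed in level. The 9 cells just inside, with a sum of 2 over *Onecut1*, *Onecut2* and *Lhx1*, had *Tfap2b* at 342 CPM and *Tfap2a* at 45.6 CPM. Just outside were 14 cells with a sum of 1, at 275 CPM of *Tfap2b* and with no *Tfap2a* UMI. On the *Ptf1a* side, 39 otherwise eligible cells had 2 *Ptf1a* UMIs, and they had *Tfap2b* at 948 CPM, *Tfap2a* at 139 CPM and *Prox1* at 63.0 CPM. The median depth of the 102 cells was 7028 UMIs (3859 to 25718), below the 9992 of the other cells. Scrublet marked 3 of the 102 as doublets (2.94%), against 1.20% of the other cells. No barcode among the 102 occurred in the GFP+ library, although the libraries shared 20 barcodes.

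Horizontal-lineage transcripts outside the rule were present, but not in every cell. *Prox1*, the only given marker that the rule did not use, was at 85.5 CPM in the *Tfap2b*/*Onecut* cells and 12.1 CPM in the other cells, a ratio of 7.07 (5.45 to 9.04). It was detected in 42 of 102 cells (41.2%), in 10.9% of the other cells and in 12.3% of 802 cells with the ganglion factor *Pou4f2* and no *Tfap2b* UMI (*Pou4f2* cells), whose median depth was higher (12750.5 UMIs). After each cell was thinned to 3200 UMIs, which 4314 of the other cells and all 102 chosen cells reached, the *Prox1* shares were 28.4%, 4.03% and 3.75%. *Tfap2a*, the second AP-2 gene, was at 121 CPM against 5.03 CPM, 24.1 times higher (18.9 to 30.5), and was found in 47 of the 102 cells. *Onecut3* was at 46.3 against 2.83 CPM in 27 cells, and the zinc-finger gene *Sall3* at 17.8 against 0.697 CPM in 8 cells. *Megf11*, a cell-surface protein that spaces horizontal cells in their mosaic, was at 15.4 against 0.283 CPM in 9 cells. Mature horizontal genes were near the counting limit, with *Calb1* (calbindin) in 2 cells and the connexin *Gja10* in 1 cell. At least 2 of *Tfap2a*, *Prox1*, *Onecut3*, *Sall3* and *Megf11* were detected together in 42.2% of the 102 cells, 1.45% of the other cells and 0.748% of the *Pou4f2* cells. These 5 genes were set apart as a group after their values were seen. At least 2 of them were also detected in 50 of the 356 cells with 2 or more *Ptf1a* UMIs. Those 50 were most of the 63 such cells among the other cells. Where cells with 2 or more *Ptf1a* UMIs met the rest of the rule, 22.2% of 225 had at least 2 of the genes. The combination was thus more frequent in the 102 cells but not confined to them.

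The number of *Tfap2b* UMIs divided the cells further. This split was chosen after the data were seen. The 74 cells with 3 or more UMIs had *Tfap2a* at 178 CPM, *Prox1* at 121 CPM and *Onecut3* at 65.0 CPM. In the 23 cells with 1 UMI, *Tfap2a* was at 7.17 CPM and *Prox1* at 14.3 CPM, while *Onecut3*, *Sall3*, *Megf11*, *Nxph4* and *Slc32a1* had no UMI. None of these 23 cells had 2 of the 5 horizontal genes. Some of the 23 carried transcripts of other lineages, with *Isl1*, *Otx2* and *Top2a* each found in 10 cells and *Pou4f2* in 7. *Isl1*, a LIM factor of ganglion and some amacrine cells, was at 491 CPM against 30.6 CPM in the 74 cells, and of its 137 UMIs in the 23 cells the 3 highest cells held 28, 28 and 24. The synuclein *Sncg* was at 1882 against 107 CPM, and the ganglion factor *Pou4f2* at 75.3 against 1.91 CPM. *Otx2*, a photoreceptor and bipolar factor, was at 323 against 34.4 CPM, and *Top2a*, a topoisomerase of dividing cells, at 305 against 26.8 CPM. Over whole lists, the 11 ganglion genes summed to 4519 CPM in the 1-UMI cells and 738 CPM in the 74 cells, both led by *Gap43*. Cells with 3 or more UMIs of the ganglion list ran the other way, at 47.8% of the 23 and 63.5% of the 74. The 10 mitosis genes summed to 1236 CPM and 243 CPM. In the 5 cells with 2 *Tfap2b* UMIs they summed to 2669.9 CPM, with *Top2a* found in 1 of the 5. The 1-UMI cells were also deeper (median 10946 against 6621 UMIs), and 2 of 23 were marked as doublets (8.70%) against 1 of 74 (1.35%).

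A single *Tfap2b* UMI also occurred outside the rule in 9 of 826 cells with *Pou4f2* (1.09%). Counts of 3 or more occurred in 8 of these cells (0.969%). Whether free RNA, doublets or low *Tfap2b* transcription gave the 23 single UMIs was not tested. The 13 further horizontal genes, taken as a whole list, did not follow the label by their sum. They came to 1806 CPM in the 23 cells, led by *Nefl* at 1003 CPM and with 9 of the 13 at no UMI, to 1381 CPM in the 74 cells, led by *Nefm*, and to 1978 CPM in the *Pou4f2* cells. Cells with at least 3 UMIs of that list were 43.5% of the 23 and 79.7% of the 74. The label of a horizontal lineage thus rests on single genes such as *Tfap2a* and *Prox1* in part of the 74 cells. The study treats *Tfap2b* and *Ptf1a* as marking amacrine and horizontal cells alike. It calls these fates hard to part by early transcriptomes without enough cells. Whether amacrine cells are among the 102 was not tested. The 23 cells carried part of several levels given below: *Ccnd1* was at 717 CPM in the 23 cells and 151 CPM in the 74, *Sncg* was at 107 CPM in the 74, and the 10 mitosis genes summed to 243 CPM in the 74 against 688 CPM in all 102.

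**Figure D2:**
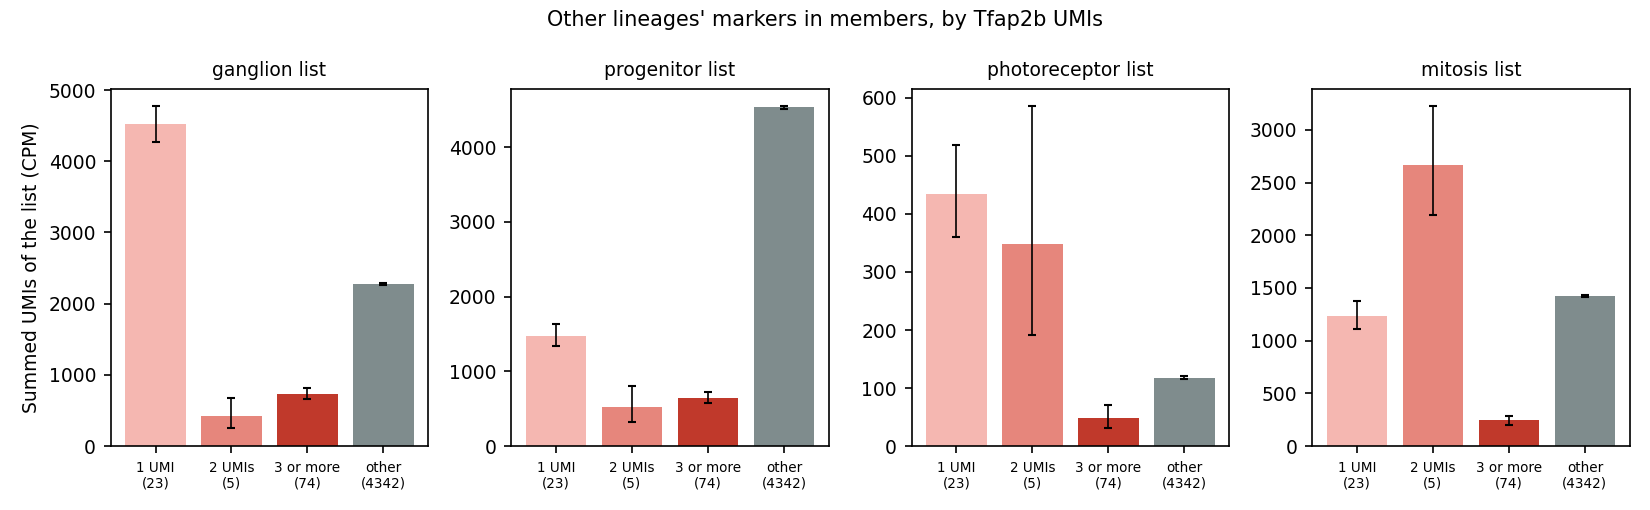
Summed CPM (y axes, from 0) of 4 marker lists in *Tfap2b*/*Onecut* cells grouped by their *Tfap2b* UMIs, and in the other cells. Bars are sums with exact Poisson intervals (counting error only). Ganglion transcripts stood at 4519 CPM in the 23 cells with 1 UMI and 738 CPM in the 74 with 3 or more, and mitosis transcripts at 1236 and 243 CPM.

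Against the other 4342 cells of the library, 14974 genes had at least 10 UMIs over both groups. Of these, 11.4% were at least 2-fold higher in the *Tfap2b*/*Onecut* cells and 23.3% at least 2-fold lower (1702 and 3483 genes). Many of these ratios come from low counts. Among the 3286 genes with at least 50 CPM in either group, 222 were higher and 158 lower. Of 11 further horizontal genes with enough UMIs, 8 were at least 2-fold higher and none at least 2-fold lower, with a median log2 ratio of 2.22 against -0.02 for all genes compared. Among the 8 were *Tfap2a*, *Onecut3*, *Sall3*, *Megf11*, *Slc32a1*, *Calb1* and *Nefm*. *Foxn4*, which acts in the progenitor before *Ptf1a*, was at 26.1 against 45.6 CPM, and 7 of the 9 cells with it were in the 1-UMI group.

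The genes with the highest ratios besides *Tfap2a*, chosen by size alone among those with at least 50 CPM in either group, are given next. *Lhx1os*, a noncoding RNA transcribed away from *Lhx1*, was at 54.6 CPM against 0.936 CPM, a ratio of 58.4 (37.7 to 90.6). It starts beside *Lhx1*, a gene of the rule, so its level can follow the choice of cells. *Pmfbp1* was at 70.1 against 3.55 CPM. *Nrxn3*, a presynaptic neurexin, was at 239 against 20.6 CPM, 11.6 times higher (9.90 to 13.5). It was detected in 70 of 102 cells (68.6%) and in 10.1% of the *Pou4f2* cells. Over the cells with 2 or more *Ptf1a* UMIs, its ratio ran from 0.625 to 1.76 under the alternatives run. *Nxph4*, a neurexophilin that binds neurexins, was at 84.3 against 7.21 CPM. *Slc1a6*, a glutamate transporter, was at 133 against 13.4 CPM. The ratios of *Fam212b* and *Pgbd5* were 12.1 and 10.4, and that of the noncoding RNA 9530059O14Rik was 17.6. *Gm20649*, at 79.6 against 4.40 CPM, lies on the same strand as *Onecut1* and overlaps it (chr9:74848463-74891476 and chr9:74861921-74891781, GRCm38), so its counts cannot be separated from those of a gene in the rule.

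**Figure D3:**
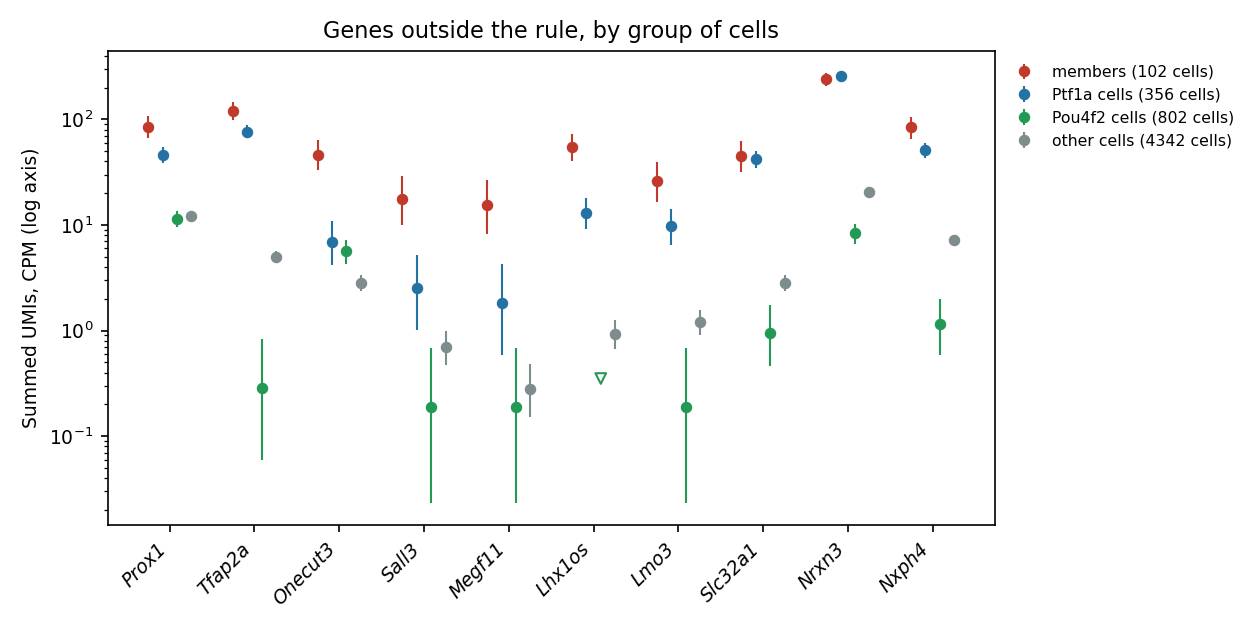
CPM on a log axis for 10 genes that the rule did not use, in *Tfap2b*/*Onecut* cells (members), *Ptf1a* cells, *Pou4f2* cells and all other cells. Of these genes, *Lhx1os* starts beside *Lhx1*, a gene of the rule. Points carry exact Poisson intervals, and an open triangle is the upper bound for a gene with no UMI (*Lhx1os* in *Pou4f2* cells). *Prox1*, *Tfap2a*, *Onecut3*, *Sall3*, *Megf11* and *Lhx1os* were highest in the members, and the points of *Nrxn3* and *Slc32a1* in all 102 members lay near those of the *Ptf1a* cells (ratios of 0.921 and 1.08, against 1.42 and 1.70 in the 74 members with 3 or more *Tfap2b* UMIs).

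Progenitor and replication genes were lower. Of 10 progenitor genes, 9 were at least 2-fold lower than in the other cells, as were 23.3% of all genes. The Wnt modulator *Sfrp2* was at 124 against 895 CPM, a ratio of 0.138 that became 0.0625 without the cells marked as doublets and 0.0640 with 250 to 3500 genes per cell. *Fgf15* was at 162 against 1242 CPM, and the Notch effector *Hes5* at 29.7 against 271 CPM, a ratio of 0.109 (0.0708 to 0.162). *Notch1* itself was at 46.3 against 51.4 CPM. Of 10 replication genes 8 were at least 2-fold lower, with the helicase subunit *Mcm3* at 5.94 against 56.1 CPM, and of 10 mitosis genes 6 were. Globins were also among the lowest ratios, but only 1 of the 4342 other cells held 3 or more globin UMIs. *Cp* (ceruloplasmin), *Sparc*, *Pla2g16*, *Fgf3* and *Espn* were at 3.56 to 14.3 CPM against 61.0 to 172 CPM.

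Part of the genes of maturing neurons were higher. Over all genes, 11.4% were at least 2-fold higher than in the other cells and 23.3% lower. Of 12 synaptic vesicle genes, 7 were at least 2-fold higher than in the other cells, among them *Snap25* (195 against 64.1 CPM, a ratio of 3.04 that became 6.61 with 250 to 3500 genes per cell and 5.21 with *Lhx1* required), *Vamp2* (167 against 67.2 CPM), *Stx1a* (48.7 against 16.3 CPM) and *Rab3a* (282 against 97.8 CPM). Of 10 neuronal RNA-binding genes 6 were, with *Celf4* at 409.8 against 87.7 CPM and *Elavl3* at 649.8 against 284 CPM. Of 12 neurofilament and microtubule genes 5 were, and *Dcx*, a microtubule protein of migrating neurons, was at 164 against 52.5 CPM. No gene of these 3 lists was at least 2-fold lower. Of 10 inhibitory transmitter genes compared, 3 were at least 2-fold higher and 1 lower. *Slc32a1*, the vesicular GABA and glycine transporter, was at 45.1 against 2.83 CPM, a ratio of 15.9 (10.8 to 23.0). *Abat*, which degrades GABA, was at 67.7 against 24.9 CPM. *Gad1*, which makes GABA, had 3.56 CPM in 2 cells, and *Gad2* was at 38.0 against 21.0 CPM.

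The *Tfap2b* cells with no UMI of *Onecut1*, *Onecut2* or *Lhx1* were few and rich in progenitor transcripts. These 34 cells, with at most 1 UMI of *Ptf1a*, had a median of 9615.5 UMIs. Of 8664 genes compared, 17.7% were at least 2-fold higher in the *Tfap2b*/*Onecut* cells and 9.51% lower. *Ccnd1*, the D-type cyclin of retinal progenitors, was at 337 CPM in the *Tfap2b*/*Onecut* cells and 1655 CPM in the 34 cells. *Sfrp2* was at 124 and 1324 CPM, and 9 of 10 progenitor genes were at least 2-fold lower. *Tfap2a*, *Nrxn3*, *Nxph4*, *Cttnbp2*, *Serpini1* and *Krt73* had no UMI in the 34 cells, so that *Tfap2a* was at least 14.4-fold and *Nrxn3* at least 28.4-fold higher against a floor of 3 UMIs. *Prox1*, at 85.5 CPM, was 6.10 times higher than in the 34 cells (2.50 to 19.3). *Tfap2b* itself stood at 112 CPM in the 34 cells. The 5 given markers summed to 45 UMIs over these cells, so most of them had a single *Tfap2b* UMI. Differences by *Onecut* or *Lhx1* and by *Tfap2b* level therefore cannot be told apart in this comparison.

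The *Ptf1a* cells were 356 cells with at least 2 UMIs of this factor of the common amacrine and horizontal precursor. Their median depth was 7059 UMIs, near that of the *Tfap2b*/*Onecut* cells, and 225 of them met the other conditions of the rule. Of 10911 genes compared, 6.47% were at least 2-fold higher and 6.60% lower in the *Tfap2b*/*Onecut* cells. With at least 50 CPM in either group, these numbers were 77 and 50 of 3273 genes. Of 9 further horizontal genes 6 were at least 2-fold higher and none lower (*Onecut3*, *Sall3*, *Megf11*, *Nefl*, *Nefm* and, largely in the 1-UMI cells, *Foxn4*). *Onecut3* was at 46.3 against 6.89 CPM, a ratio of 6.72 (3.79 to 12.3), *Sall3* at 17.8 against 2.54 CPM and *Megf11* at 15.4 against 1.81 CPM. *Lhx1os* was at 54.6 against 13.1 CPM, a ratio of 4.19 (2.65 to 6.67). *Lmo3*, a LIM-only partner protein, was at 26.1 against 9.79 CPM. *Prox1* was 1.84 times higher (1.36 to 2.48) and *Tfap2a* 1.58 times higher (1.24 to 2.02). Both passed the 2-fold limit in the 74 cells with 3 or more *Tfap2b* UMIs (2.60 and 2.33) and with *Lhx1* required (3.39 and 3.90). *Slc32a1* was at 45.1 against 41.7 CPM, a ratio whose interval, 0.730 to 1.57, includes 1. The ratio became 1.70 in the 74 cells and 1.76 with *Lhx1* required.

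Of 10 progenitor genes compared with the *Ptf1a* cells, 1 was at least 2-fold lower and none higher, and of 17 neurogenic genes 4 were higher and 3 lower, beside 6.47% higher and 6.60% lower over all genes. Among the lowest ratios, *Hes5* was at 29.7 against 389 CPM, *Hey1* at 9.50 against 64.2 CPM, and the Notch glycosyltransferase *Lfng* at 8.31 against 78.7 CPM. Of 9 amacrine genes compared, 3 were at least 2-fold higher and 2 lower. *Isl1*, whose UMIs came mostly from the 1-UMI cells, was among the 3. The whole amacrine list summed to 624 against 623 CPM, and to 509 CPM in the 74 cells with 3 or more *Tfap2b* UMIs. *Prdm13*, a factor of amacrine precursors downstream of *Ptf1a*, was at 74.8 against 205 CPM, a ratio of 0.365 (0.276 to 0.474). In the 74 cells the ratio was 0.531 and in thinned cells 0.638, no longer 2-fold apart. The rule was applied again to the thinned cells and 117 met it, so depth and membership changed together. *Dlx1* was at 34.4 against 121 CPM and *Cdkn1c*, a cell cycle inhibitor, at 632 against 1362 CPM. The ratio of *Cdkn1c*, 0.464, also left the 2-fold limit in the 74 cells (0.614) and in thinned cells (0.653). The remaining genes of the lowest ratios, *H19*, *Lpl*, *Insm2*, *Ypel2*, *Chodl* and *Gldc*, were at 8.31 to 52.3 CPM against 51.5 to 209.6 CPM. Since the rule capped *Ptf1a* in the first group and required it in the second, genes that follow *Ptf1a* can differ through the choice alone.

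Most of the highest ratios over the *Ptf1a* cells came from the 1-UMI group. *Sst* (somatostatin) was at 65.3 against 1.81 CPM, but all 4 cells with it had a single *Tfap2b* UMI. *Isl1* and *Sncg*, with ratios of 5.83 and 6.27, fell to 0.912 and 0.919 when at least 2 *Tfap2b* UMIs were required, and *Crabp1* stood at 28.7 CPM in the 74 cells against 53.3 CPM in the *Ptf1a* cells. *Otx2*, *S100a10* and *Spc25* were likewise at 165 to 383 CPM in the 23 cells and at 13.4 to 34.4 CPM in the 74. *Islr2*, an immunoglobulin-domain protein of growing axons, was at 139.6 CPM in the 74 cells and 29.7 CPM in the *Ptf1a* cells. Of 9 ganglion genes 6, and of 10 mitosis genes 9, were at least 2-fold higher over all 102 cells, beside 6.47% of all genes. In the 74 cells the mitosis list summed to 243 CPM, against 227 CPM (209.9 to 246) in the *Ptf1a* cells, and the ganglion list to 738 against 475 CPM.

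Against 802 *Pou4f2* cells, the ganglion lineage of the same library (no *Tfap2b* UMI, at most 1 of *Ptf1a*, median 12750.5 UMIs), 8.28% of 12664 genes were at least 2-fold higher in the *Tfap2b*/*Onecut* cells and 10.7% lower. Of 10 ganglion genes, 8 were at least 2-fold lower. Since the second group was chosen by its *Pou4f2* UMIs, *Pou4f2* and genes that follow it can differ through the choice alone. The same holds for genes that follow *Tfap2b*, which was required in the first group and absent by choice from the second. *Nrn1* was at 22.6 against 114 CPM, the LIM-only gene *Lmo2* at 5.94 against 70.0 CPM, and *Sncg* at 691 against 2520.4 CPM. *Gal*, *Nrp1*, *Cntn2*, *Ccer2* and *Ppp2r2c* were at 2.38 to 125 CPM against 52.4 to 658 CPM. *Tfap2a* was at 121 against 0.286 CPM, from 3 UMIs in the *Pou4f2* cells, a ratio of 423 (141 to 2085). *Lhx1os* had no UMI there and was at least 191-fold higher against a floor of 3 UMIs. *Vtn* (vitronectin) was at 101 against 0.286 CPM and *Prdm13* at 74.8 against 0.477 CPM. *Prox1* was at 85.5 against 11.5 CPM. *Barhl2*, a factor of amacrine and ganglion cells, was at 91.5 against 78.0 CPM, a ratio of 1.17 (0.916 to 1.48). Of 12 synaptic vesicle genes none was at least 2-fold higher and 1 was lower.

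*Lhx1* and its neighbour *Lhx1os* are read from opposite strands, *Lhx1* from chr11:84518284-84525535 on the minus strand and *Lhx1os* from chr11:84525660-84535831 on the plus strand (GRCm38). *Lhx1os* was found in 18 of the 28 cells with *Lhx1* and in 13 of the 46 cells that lacked it but had 3 or more *Tfap2b* UMIs. It was in 1 of 23 cells with a single *Tfap2b* UMI, in none of the 802 *Pou4f2* cells without *Tfap2b* (a floor of 3 counts allows up to 0.374% of cells with a UMI), and in 2 of all 826 cells with *Pou4f2* outside the rule. The stretch between the starts is shown because both transcripts were found in the same cells. It runs from chr11:84525535-84525659 on the minus strand of GRCm38.p6 (RefSeq), from the base beside *Lhx1os* to the first base of *Lhx1*. Capitals mark a CCAAT box, read here as its reverse complement ATTGG, and the letters TGACG.

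Lhx1 and Lhx1os: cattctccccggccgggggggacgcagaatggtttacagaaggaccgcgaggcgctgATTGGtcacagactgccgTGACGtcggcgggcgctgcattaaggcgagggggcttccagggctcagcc

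The stretch is 125 bases long, and the matches begin at bases 58 and 76. Among 32851 RefSeq promoter stretches of the same length, 21.9% held CCAAT and 11.9% held TGACG on either strand. The letters ATCGAT and ATCAAT, which occur in sites of Onecut factors, were not in this window, and 0.283% and 3.00% of the promoter stretches held them. A match or its absence describes the letters only.

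Horizontal-lineage transcripts were most frequent in the 28 cells with *Lhx1*. All 28 had at least 5 *Tfap2b* UMIs, none was marked as a doublet, and 23 (82.1%) had at least 2 of the 5 horizontal genes, against 39.1% of the 46 cells that had 3 or more *Tfap2b* UMIs and no *Lhx1*. They were set against these 46 cells, a split that, like the 5-gene group, was chosen after the data were seen. Median depths were 6489.5 and 6846.5 UMIs. The deepest cells had 9657 and 17853 UMIs, and 1 of the 46 was marked as a doublet. Of 6103 genes compared, 7.86% were at least 2-fold higher in the *Lhx1* cells and 9.86% lower. Of 8 further horizontal genes with enough UMIs, 6 were at least 2-fold higher and none lower. Cells with at least 3 UMIs of the 13 further horizontal genes were 96.4% of the 28 and 69.6% of the 46. *Tfap2a* was at 299 against 108 CPM, a ratio of 2.75 (1.78 to 4.30), and was in 23 of 28 against 21 of 46 cells. *Onecut3* was at 105 against 42.2 CPM in 14 and 11 cells, and *Sall3* at 68.1 against 6.03 CPM in 6 and 2 cells. *Megf11* was at 68.1 CPM in 9 cells with *Lhx1* and had no UMI in the other 46, so that it was at least 7.53-fold higher against a floor of 3 UMIs. *Nxph4* was at 209.5 against 87.4 CPM. *Prox1* was in 19 of 28 and 16 of 46 cells, and the interval of its ratio, 0.931 to 2.67, includes 1. *Slc32a1*, at 73.3 and 69.3 CPM, had a ratio of 1.06 (0.503 to 2.15).

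Some axonal and synaptic genes were also higher in the cells with *Lhx1*: 4 of 11 synaptic vesicle genes and 4 of 11 neurofilament and microtubule genes were at least 2-fold higher, and none lower, beside 7.86% higher and 9.86% lower over all genes. The neurofilament gene *Nefl* was at 796 against 181 CPM, *Nefm* at 927 against 349.6 CPM, and *Dcx* at 356 against 115 CPM. *Snap25* was at 340.5 against 166 CPM, *Homer2*, a synaptic scaffold protein, at 178 against 24.1 CPM, and *Sncg* at 230.5 against 36.2 CPM. The Wnt inhibitor *Frzb* was at 62.9 against 15.1 CPM. *Tpm3-rs7* was at 372 against 18.1 CPM, in 9 and 4 cells. It is a near copy of the tropomyosin gene *Tpm3*, which was at 1116 against 398 CPM, and the reads of such copies may be split between them, so its level is uncertain.

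Several precursor genes were lower in the cells with *Lhx1*. *Cdkn1c* was at 199 against 1202 CPM, a ratio of 0.166 (0.115 to 0.231), and *Prdm13* at 26.2 against 157 CPM, in 4 of 28 and 26 of 46 cells. The POU factor *Pou2f2* had no UMI against 142 CPM. *Hes6* was at 141 against 521 CPM, and *Cxcl14*, *Chodl*, *Igfbp5* and *Krt73* were at 0 to 10.5 CPM against 121 to 159.7 CPM. Of 13 neurogenic genes compared 9, and of 7 progenitor genes 6, were at least 2-fold lower, beside 9.86% of all genes that passed the filter on low counts. The progenitor list summed to 278 against 862 CPM. Cells with 3 or more UMIs of that list were nearly as frequent in both, at 28.6% of the 28 and 32.6% of the 46. What the cell marked as a doublet among the 46 gave to these differences was not tested. The mitosis genes summed to 7 UMIs against 120, with 3 or more UMIs in 1 of 28 and 2 of 46 cells, and of 7 replication genes none was 2-fold apart. *Ptf1a*, capped by the rule, was at 57.6 and 81.4 CPM, a ratio of 0.708 (0.317 to 1.47).

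*Lhx1* also divided the *Ptf1a* cells, which the rule did not use. Of the 356, 31 had an *Lhx1* UMI (median 6647 UMIs) and 325 had none (median 7116 UMIs). Of 10332 genes compared, 8.57% were at least 2-fold higher with *Lhx1* and 17.4% lower. Among genes with at least 50 CPM in either group the shares were 5.67% and 4.04%. At this level 243 genes were higher with *Lhx1* in the *Tfap2b*/*Onecut* cells, and 241 of them had enough UMIs in the *Ptf1a* cells. Of the 241, 68 (28.2%) were also higher in the *Ptf1a* cells with *Lhx1* and 9 were lower. Of 228 that were lower, 55 (24.1%) were lower again and 4 were higher. *Tfap2a* was at 272 against 59.8 CPM, a ratio of 4.54 (3.31 to 6.18). *Lhx1os* was at 50.7 against 9.84 CPM and *Frzb* at 50.7 against 6.69 CPM. *Lhx1os*, which starts beside *Lhx1*, can differ through the split alone. *Nefl* was at 364 against 146 CPM and *Dcx* at 198 against 52.7 CPM. *Cdkn1c* was at 548 against 1431 CPM and *Hes5* at 9.22 against 421 CPM. *Prdm13* was at 194 against 206 CPM, a ratio of 0.938 (0.668 to 1.29). *Sall3* and *Megf11* were at 1 UMI each in the 31 cells, too few for a ratio. At least 2 of the 5 horizontal genes were in 48.4% of the 31 cells and 10.8% of the 325. Cells without an *Lhx1* UMI may still transcribe it, as 13 of the 28 positive *Tfap2b*/*Onecut* cells had only 1 UMI.

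**Figure D4:**
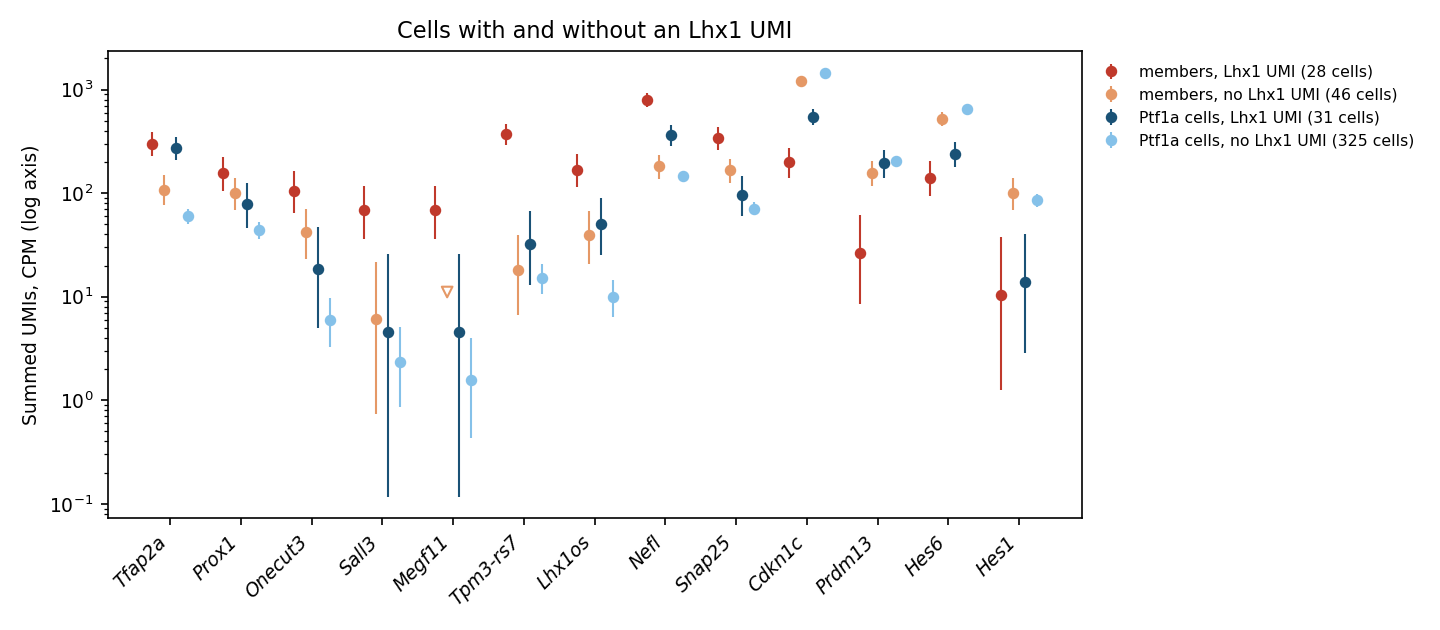
CPM on a log axis for 13 genes in cells with and without an *Lhx1* UMI, among *Tfap2b*/*Onecut* cells with 3 or more *Tfap2b* UMIs (members) and among *Ptf1a* cells. Points carry exact Poisson intervals and the open triangle is the upper bound for a gene with no UMI. *Lhx1os* starts beside *Lhx1*, by which the cells were split, and can differ through the split alone. *Tfap2a*, *Lhx1os* and *Nefl* were higher, and *Cdkn1c*, *Hes6* and *Hes1* lower, with *Lhx1* in both, and *Prdm13* was at 26.2 against 157 CPM in the members and 194 against 206 CPM in the *Ptf1a* cells.

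Of 11 amacrine genes compared with the other cells, 3 were at least 2-fold higher in the *Tfap2b*/*Onecut* cells and 1 lower, with *Prdm13* at 74.8 against 13.3 CPM and *Barhl2* at 91.5 against 30.2 CPM. *Tfap2c*, an AP-2 gene of amacrine cells, was at 9.50 CPM in 7 cells, against 25.7 CPM in the *Ptf1a* cells. Against the *Ptf1a* cells, 3 of 9 amacrine genes were at least 2-fold higher and 2 lower, beside 6.47% and 6.60% of all genes. The 3 included *Isl1*, mostly from the 1-UMI cells. Over all genes compared with the other cells, 11.4% were at least 2-fold higher and 23.3% lower. Of 17 neurogenic genes 4 were at least 2-fold higher than in the other cells, among them *Sox4* (2215 against 755 CPM) and *Sox11* (1582 against 788 CPM). *Neurog2*, a proneural factor, was at 616 CPM in the 1-UMI cells and 147 CPM in the 74. Photoreceptor genes summed to 190.1 CPM, of which *Otx2* gave 144, and to 47.8 CPM in the 74 cells.

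Markers of cells outside the neural retina were low in the *Tfap2b*/*Onecut* cells apart from *Cldn5*. Globins summed to 4.75 CPM over 5 genes, of which 3 had no UMI, against 1.81 CPM in the *Ptf1a* cells and 2.67 CPM in the *Pou4f2* cells. The other cells summed to 358 CPM, with 3 or more globin UMIs in 1 of 4342 cells. Microglial genes came to 3.56 CPM, all from *C1qa*, which was at 3.46 CPM in the other cells. Pigment epithelium genes came to 4.75 CPM, from 4 UMIs of *Dct*, against 1.39 CPM in the other cells. The lens crystallins had no UMI, which allows up to 3.56 CPM. *Cldn5*, a tight-junction gene used as an endothelial marker, was at 106 CPM in 20 cells, against 16.1 CPM in the other cells and 251 CPM in the *Ptf1a* cells. The other endothelial genes *Kdr*, *Egfl7* and *Pecam1* were at 10.7, 7.13 and 1.19 CPM, none above the other cells. Immediate early and heat shock genes, which can mark dissociation, summed to 321 CPM against 387 CPM in the other cells, and mitochondrial transcripts had medians of 2.52% and 2.33%.

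In the GFP+ library, 2 of 3728 cells met the same rule (0.0536%, 0.00650 to 0.194). The median depth there was lower, and the shares of the gates were not compared at equal depth.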

How the data were processed

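Retinal cells of E14.5 LHX4::GFP embryos were sorted into GFP+ and GFP- fractions and sequenced as 1 library each. Per the labels, the deposited matrices hold raw UMI counts with no normalization, and the authors used the filtered matrices of Cell Ranger 2.1.1 (submitters' processing notes) with an mm10 reference. Of 28692 genes listed, 58 symbols belonged to more than 1 gene. Cells under a mitochondrial fraction of 0.25 were kept, with no upper limit on genes, and compared as raw UMIs summed per group and divided by the group's total (CPM). Called genes were at least 2-fold apart with at least 10 UMIs over both groups. Levels carry exact Poisson, ratios exact conditional binomial and shares Clopper-Pearson 95% intervals, and a floor of 3 UMIs was used for genes at 0. They cover counting error only. The ratio step was tested on simulated counts. Scrublet, run through scanpy 1.11.5 with 0.03 as the expected doublet rate, marked doublets, which were kept.

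The cells and gene lists were chosen with earlier results of these data known. Named genes were the members of the lists and the 10 highest and 10 lowest ratios in each comparison at 50 CPM or more; other genes named in the *Lhx1* split, the 5-gene group and the splits by *Tfap2b* and *Lhx1* UMIs were chosen after their values were seen. Positions come from the GENCODE M21 annotation and the printed stretch from RefSeq (GRCm38.p6). Alternatives varied the cell filters, the thresholds of the rule, the gene filter, the depth (3200 UMIs per cell) and the scaling (including TMM, edgeR 4.0.16, used for scaling factors only). Analyses used Python 3.11.15, scipy 1.17.1 and pandas 2.3.3. The study's clusters were not used here, and a few genes are not reported here.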

Additional observations from a re-analysis of the deposited data

How the results depend on the processing

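No paired analysis was possible because all groups came from 1 library and no test was made, and for the same reason no replicate could be left out. The 102 cells became 60 with no *Ptf1a* UMI allowed and 28 with *Lhx1* required, 74 to 102 under the other settings of the rule and of the cell filters, and 117 in the cells thinned to 3200 UMIs. The rule was applied again to the thinned cells, so ratios given for thinned cells changed depth and membership together. Counts of genes at least 2-fold apart followed the filter on low counts. Against the other cells, 5185 genes became 9160 with no filter, 3019 with at least 50 UMIs, 380 with at least 50 CPM (added after the data were seen) and 8313 with *Lhx1* required. In the same order, 1426 genes against *Ptf1a* cells became 4799, 365, 127 and 3291, and 2409 against *Pou4f2* cells became 6331, 1064, 175 and 5310. Against the *Tfap2b* cells without *Onecut* or *Lhx1*, 2357 became 6207, 611 and 724 under the first 3. Mean UMIs per cell in place of CPM moved the median log2 ratio by -0.36 (other cells), -0.35 (*Tfap2b* cells without *Onecut* or *Lhx1*) and -0.66 (*Pou4f2* cells), and the split into higher and lower genes from 1702 and 3483 to 1045 and 4298, from 1533 and 824 to 1074 and 1545, and from 1048 and 1361 to 347 and 3081. TMM factors moved that median by -0.14 (other cells) and -0.13 (*Pou4f2* cells).

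Over *Ptf1a* cells, the ratio of *Isl1* was 0.912 with at least 2 *Tfap2b* UMIs and 0.982 with at least 3, and that of *Sncg* 0.919 and 0.972. *Top2a* was at 0.717 with at least 3, at 0 with *Lhx1* required and at 0.153 in thinned cells. *Otx2* was at 0.249 and *Neurog2* at 0.895 with *Lhx1* required, and both at 0.744 in thinned cells. Over the other cells, *Cdkn1c* was at 0.831 with *Lhx1* required. The cause was not tested. Under all alternatives run, the ratios of *Prox1* (5.51 to 12.2), *Tfap2a* (14.3 to 50.4), *Onecut3* (12.8 to 37.6), *Sall3* (20.0 to 93.3), *Megf11* (42.6 to 244), *Nrxn3* (7.06 to 20.0), *Prdm13* (1.83 to 8.19), *Snap25* (2.37 to 6.61) and *Lhx1os* (45.5 to 137) over the other cells kept their direction. Genes found in fewer than about 10 of the cells are limited by counting, and no spread between animals can be given.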

Other observations

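Of the 102 *Tfap2b*/*Onecut* cells, 8 also carried *Pou4f2* UMIs. Their median depth was 16088.5 UMIs, against 7028 over all 102, and 1 was marked as a doublet (12.5%). Outside the *Tfap2b*/*Onecut* and *Ptf1a* cells, 4 cells of the GFP- library had an *Lhx1* UMI, and none of them had a UMI of *Tfap2a*, *Prox1*, *Onecut3*, *Sall3* or *Megf11*.

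Among *Ptf1a* cells, several genes were higher with *Lhx1* that did not separate the *Tfap2b*/*Onecut* cells by *Lhx1*. *Pnmt*, the enzyme that makes adrenaline, had a ratio of 7.81 (3.67 to 16.1) there and 0.948 (0.288 to 2.80) in the *Tfap2b*/*Onecut* cells. *Dlk1*, a Notch-related ligand, had ratios of 6.34 (2.97 to 13.0) and 0.790 (0.215 to 2.47). Whether these ratios differ was not tested.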
